A study of Mus musculus with 9 samples.

Results

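The genes described here carried a promoter peak of trimethylated lysine 4 of histone H3 (H3K4me3) in each of 3 bone marrow cell populations while their RNA was low in all of them. A gene was a member when the authors annotated at least 1 H3K4me3 interval to its promoter in all 3 peak lists and its RPKM (reads scaled to transcript length and library size), summed over its transcripts, were under 0.5 in all 6 RNA libraries. The rule gave 1108 genes of the 23471 in the RNA tables. They were 10.1% of the 11005 genes marked in all 3 lists and 9.87% of the 11231 genes under 0.5 RPKM in every library. The remaining 9897 genes marked in all 3 lists had at least 0.5 RPKM in some library. Because these values chose the members, peak presence and RNA level are given as descriptions with no test.

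The study followed eosinophil development in untreated Balb/c mice, with each population sorted from pooled bone marrow. Granulocyte-macrophage progenitors (GMP) were sorted as lineage-negative, CD34-positive cells with high c-kit and CD16/32. Eosinophil progenitors (EoP) were lineage-negative, CD34-positive, low in c-kit and positive for CD125, and mature eosinophils (Eos) were positive for CCR3 and Siglec-F. Each population gave 2 RNA libraries from independent sorts and 1 H3K4me3 library from 1 sort, so peak values have no replicates, and p-values for RNA measure the spread between sorts of pooled animals.

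H3K4me3 is deposited by the SET1 and MLL family complexes around transcription start sites, and at most active genes it covers the first nucleosomes downstream of the start. Unmethylated CpG-rich promoters can also carry it where little RNA is made, since proteins of these complexes recognise unmethylated CG. In stem and progenitor cells, promoters of developmental regulators often carry H3K4me3 together with a Polycomb mark, a state called bivalent. No Polycomb mark was measured here, so bivalency was not tested.

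The libraries' totals ranged from 5226653 to 12088134 deposited counts, with the GMP libraries the shallowest. Summed over the 6 libraries, members had a median of 31 counts. Of the genes for the sort markers, Ccr3 had 226 and 243 RPKM in Eos and 0.0911 to 4.62 elsewhere. Il5ra, for CD125, had 0.212 and 0.168 RPKM in GMP, 49.3 and 49.2 in EoP and 56.6 and 88.6 in Eos. Kit had 20.7 and 19.1 RPKM in GMP and 7.01 and 2.02 in Eos. In EoP it had 15.5 RPKM in 1 library and a value between those of GMP in the other, so GMP and EoP overlapped. Fcgr3, for CD16, was lowest in GMP, at 6.89 and 8.56 RPKM. The EoP libraries had 66.7 and 61.5 RPKM of it, and the Eos libraries 99.0 and 117. Siglec5, for Siglec-F, had 2.57 and 2.07 RPKM in GMP. In Eos it had 39.8 and 44.1 RPKM, below both EoP libraries, of which the higher had 45.7. The 10 neutrophil and GMP marker genes summed to 54844 and 50829 CPM (counts scaled to library size) in GMP, 2589 and 3026 in EoP and 49624 and 40800 in Eos. No gene of the marker lists was a member, and the part of other cells in the members' low RNA was not tested.

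Promoter sequences of 4 members are shown, each for 1 pattern that recurs in the values. Ahdc1, for an AT-hook DNA-binding protein, had one of the widest peaks. Zscan20, for a zinc finger protein, had one of the highest fold enrichments. Prtg, for the neural adhesion protein protogenin, was wide in GMP and narrow later. Iqcg, for a protein of the nexin-dynein regulatory complex of the axoneme, was annotated to the same peak as Rpl35a. Each sequence runs from 250 bases before to 50 bases after the RefSeq start on GRCm38.p6 (mm10), and capitals mark every CG.
Ahdc1: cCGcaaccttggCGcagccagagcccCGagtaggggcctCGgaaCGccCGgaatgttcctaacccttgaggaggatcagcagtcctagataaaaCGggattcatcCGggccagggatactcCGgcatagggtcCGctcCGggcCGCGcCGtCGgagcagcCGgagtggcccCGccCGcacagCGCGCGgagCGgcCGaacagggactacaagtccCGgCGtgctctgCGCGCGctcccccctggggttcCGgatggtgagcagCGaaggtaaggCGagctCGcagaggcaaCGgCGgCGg
Zscan20: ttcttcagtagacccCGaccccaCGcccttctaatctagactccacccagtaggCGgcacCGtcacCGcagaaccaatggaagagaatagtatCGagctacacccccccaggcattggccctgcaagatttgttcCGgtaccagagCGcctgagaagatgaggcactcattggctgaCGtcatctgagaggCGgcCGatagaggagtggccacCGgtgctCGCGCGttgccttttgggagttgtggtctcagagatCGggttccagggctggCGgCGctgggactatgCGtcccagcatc
Prtg: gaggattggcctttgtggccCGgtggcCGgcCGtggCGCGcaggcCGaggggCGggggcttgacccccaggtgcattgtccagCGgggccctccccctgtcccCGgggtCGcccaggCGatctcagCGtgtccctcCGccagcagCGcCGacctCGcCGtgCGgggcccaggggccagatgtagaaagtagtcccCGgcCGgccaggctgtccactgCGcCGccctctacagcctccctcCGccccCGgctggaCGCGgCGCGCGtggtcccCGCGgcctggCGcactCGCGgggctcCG
Iqcg: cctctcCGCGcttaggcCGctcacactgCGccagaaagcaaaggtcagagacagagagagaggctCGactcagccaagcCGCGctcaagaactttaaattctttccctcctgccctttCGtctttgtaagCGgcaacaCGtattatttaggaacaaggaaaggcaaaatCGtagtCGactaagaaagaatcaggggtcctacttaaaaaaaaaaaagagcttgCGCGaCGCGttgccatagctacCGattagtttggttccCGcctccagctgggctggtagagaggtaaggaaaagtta

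The Ahdc1 window lies at chr4:133011256-133011555 on the plus strand and holds 35 CG, with 69.0% G and C. Its GMP, EoP and Eos peaks covered 107, 67 and 150 bases of the window and extended downstream. The Zscan20 window lies at chr4:128610049-128610348 on the minus strand and holds 19 CG. Between 88 and 125 of its bases lay in the peaks. The Prtg window lies at chr9:72807024-72807323 on the plus strand and holds 35 CG. All 300 bases lay in the GMP peak, at chr9:72806950-72808197, and 0 in the EoP or Eos peak. The Iqcg window lies at chr16:33056137-33056436 on the minus strand and holds 18 CG. Its GMP peak, at chr16:33056497-33057424, lay upstream, with 60 bases between window and peak, and the EoP and Eos peaks left 70 and 74. Only each gene's longest promoter peak per list was compared with its window. In GMP, 54.0% of members had more than 1 promoter interval, so a shorter one may cover the start. The RefSeq start was matched within 1000 bases and can differ from the start the authors used. Whether the annotation required a peak to cover the start was not tested.

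MicroRNA hairpin genes made up 28 members, and 21 of them matched a mature sequence in the RefSeq table. The sequences shown are those of 6 genes whose peaks named no gene with RNA, with the seed (bases 2 to 8) in capitals. The first 2 share 1 seed and 1 promoter peak.
miR-132-3p: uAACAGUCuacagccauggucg
miR-212-3p: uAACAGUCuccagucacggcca
let-7i-5p: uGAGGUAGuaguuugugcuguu
miR-203-3p: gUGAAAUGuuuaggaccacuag
miR-9-5p: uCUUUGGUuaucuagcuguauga
miR-760-3p: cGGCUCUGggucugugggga

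The marked share of genes followed the RNA level over the whole table. Among 4641 genes whose highest RPKM was under 0.1, 4.50% had a promoter peak in all 3 lists. The share was 9.95% from 0.1 to 0.25 RPKM and 19.9% from 0.25 to 0.5 RPKM, the range that holds the rest of the members. It was 42.4% from 0.5 to 1 RPKM and 93.3% from 10 to 50 RPKM. The members are thus the low end of a graded relation, with no gap at the threshold. Just inside it, A930016O22Rik reached 0.499 RPKM, BC016579 0.499 and 4932416H05Rik 0.499 in their highest library. Just outside it were Arhgef28 at 0.501 RPKM, Mir148a at 0.502 and Arhgef40 at 0.502, which also had promoter peaks in all 3 lists.

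**Figure D1:**
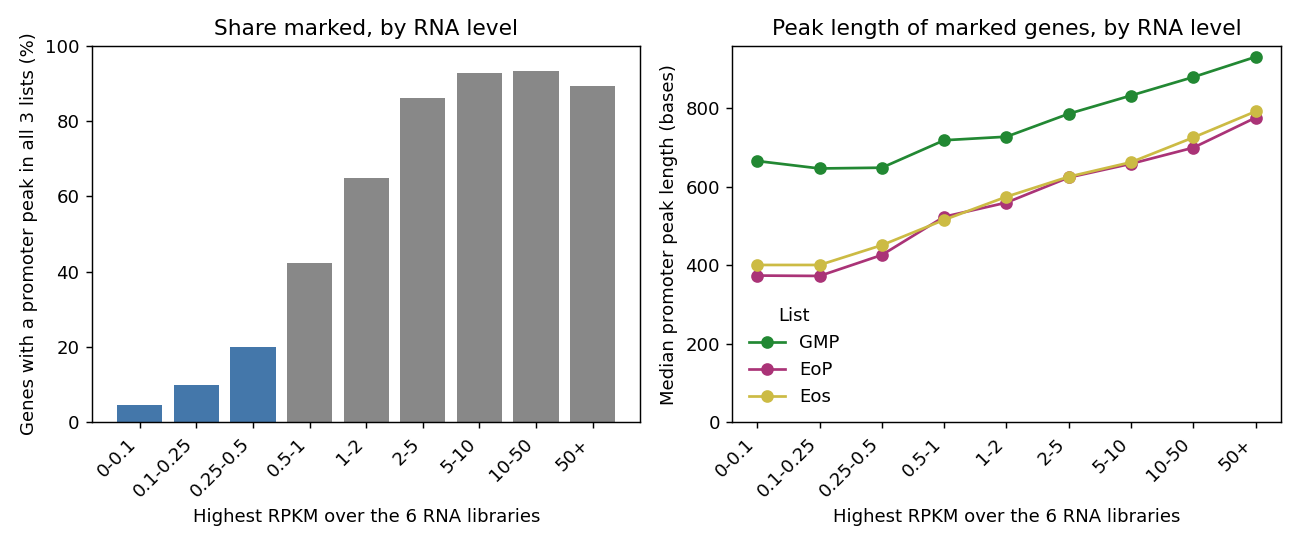
Left, bars give the percent of genes with a promoter peak in all 3 lists (y axis) by their highest RPKM over the 6 libraries (x axis), with the 3 bins that hold members in blue. Right, points give the median promoter peak length in bases of the marked genes in the same bins for each list. The share rose from 4.50% to 93.3% and fell to 89.3% above 50 RPKM, and median length in GMP rose from 666 to 931.5 bases.

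Low RNA was not the same as no RNA. Of the members, 62 (5.60%, exact 95% interval 4.32 to 7.12%) had 0 counts in all 6 libraries, against 17.7% of the 8316 genes with little RNA and no promoter peak in any list. A count was present in all 6 libraries for 44.5% of members and 6.64% of those unmarked genes. These intervals cover counting error only. Median RPKM of members was 0.126 and 0.140 in the GMP libraries, 0.0458 and 0.0549 in EoP and 0.0392 and 0.0293 in Eos. In bulk libraries, a few cells with much of an RNA and many cells with little of it cannot be told apart.

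Some zeros in the tables belong to genes that nearly all cells use. Sumo2, which encodes a small ubiquitin-like modifier, was listed at 0 counts in all 6 libraries, with promoter peaks of 837 bases in GMP, 603 in EoP and 593 in Eos. Atp6v0c, for the proteolipid of the vacuolar proton pump, was also listed at 0 in all 6. Rpl26, for a ribosomal protein, had 1 count in all, and Rpl29, for another, had between 0 and 2 counts per library. Tdg, for thymine DNA glycosylase, had between 0 and 3. These 5 genes, chosen after their values were seen, have near-identical copies or pseudogenes elsewhere in the genome. The sources used here do not say how reads with several matches were counted, so a 0 is a listed value for such genes. Their promoter peaks were as long as those of genes with RNA, at 704 to 976 bases in GMP.

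Members alone on their peaks had shorter peaks than other marked genes, whereas members that shared a peak with a gene with RNA had peaks of similar length. A member was called alone when no promoter peak of it, in any list, named another gene. There were 715 alone members (64.5%), 307 that shared a peak with a gene of at least 0.5 RPKM (27.7%) and 86 that shared with genes of little RNA. Of the other marked genes, 20.5% shared a peak with a gene of at least 0.5 RPKM. The length of a gene's longest promoter peak had a median of 581 bases in alone members in the GMP list, 333 in EoP and 322 in Eos. In members that shared with a gene with RNA the medians were 813, 643 and 642 bases, close to the 821, 649 and 659 bases of the other marked genes. Within the lengths of all genes marked in all 3 lists, 61.5% of alone members fell in the lowest 25% in GMP, 77.1% in EoP and 71.5% in Eos. Of the sharing members, 23.5%, 23.5% and 24.8% did. Lengths come from 1 library per population and were compared within each list. The lowest length of any gene marked in all 3 lists was 145 bases in EoP and 136 in Eos. Lengths at these values are the floor of their list. A gene's longest peak can be a different interval in each list.

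The authors' fold enrichment, a peak's own value in each list, was also lowest in alone members. Alone members had medians of 8.91, 5.92 and 6.06 in the GMP, EoP and Eos lists. In sharing members it was 10.9, 8.48 and 10.03, and in the other marked genes 10.5, 8.40 and 9.65. Ranked among all genes marked in all 3 lists, alone members had a median fold percentile of 30.7 in GMP, 15.2 in EoP and 12.2 in Eos. Marked genes whose highest level was 0.5 to 2 RPKM, 1732 in number, had median lengths of 726, 547 and 555 bases and median folds of 10.6, 7.83 and 8.91. They lay between the alone members and the other marked genes in length, and in fold in EoP and Eos but not in GMP. Over all 1108 members the medians were 651, 403 and 426 bases and 9.46, 6.44 and 6.92 in fold.

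**Figure D2:**
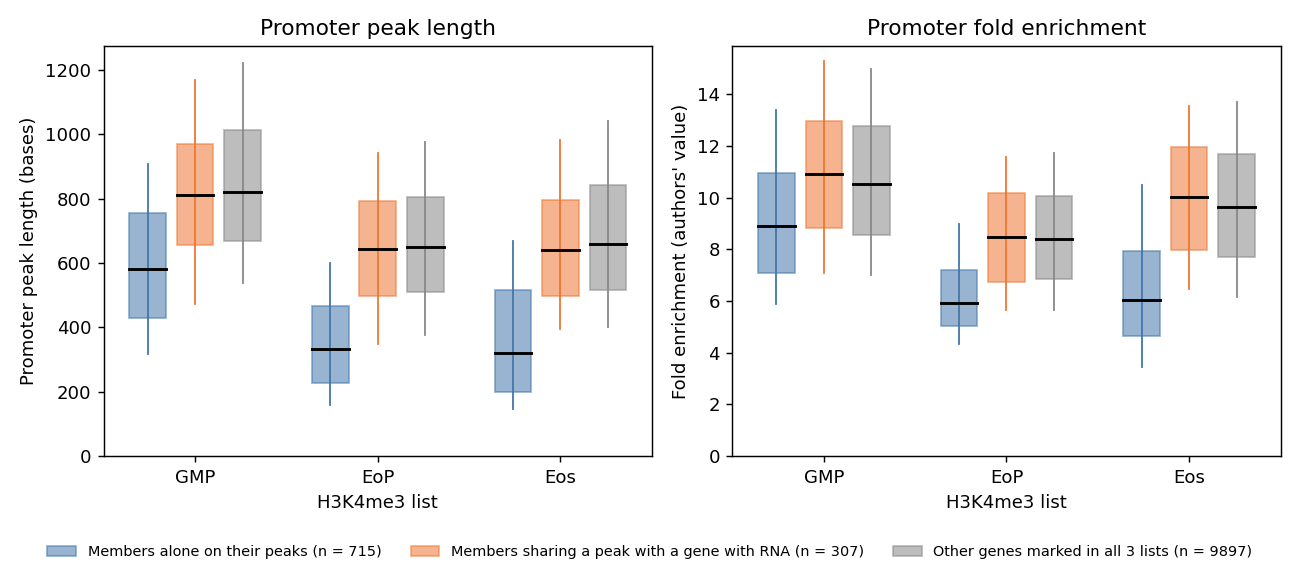
Promoter peak length in bases (left) and fold enrichment (right) in the GMP, EoP and Eos lists, for alone members, members that share a peak with a gene with RNA, and other genes marked in all 3 lists. Black lines are medians, boxes the middle 50% of genes and thin lines the 10th to 90th percentile. Alone members sit lowest in every list, and sharing members overlap the other marked genes.

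The summit lay upstream of the start mainly in the sharing members. In alone members the summit of the promoter peak lay a median of 122 bases downstream of the gene's start in GMP, 125 in EoP and 102 in Eos. In the other marked genes the medians were 222, 213 and 172 bases downstream, and in those whose highest level was 0.5 to 2 RPKM they were 158 in GMP and 127.5 in Eos. The summit was upstream for 28.7% to 32.4% of alone members and 27.3% to 30.1% of that low class. In members that shared a peak with a gene with RNA the summit lay upstream of the member's start, with medians of -286, -310 and -259 bases, and 67.8% to 72.6% of these members had it upstream. The partner was on the opposite strand for 265 of the 307 (86.3%). A start of a gene with at least 0.5 RPKM lay within 1000 bases for 26.4% of members, 19.3% of other marked genes and 0.734% of little-RNA genes with no peak. For 700 alone members no such start lay within 5000 bases, and their median lengths, 581.5, 334 and 325 bases, were close to those of all alone members.

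**Figure D3:**
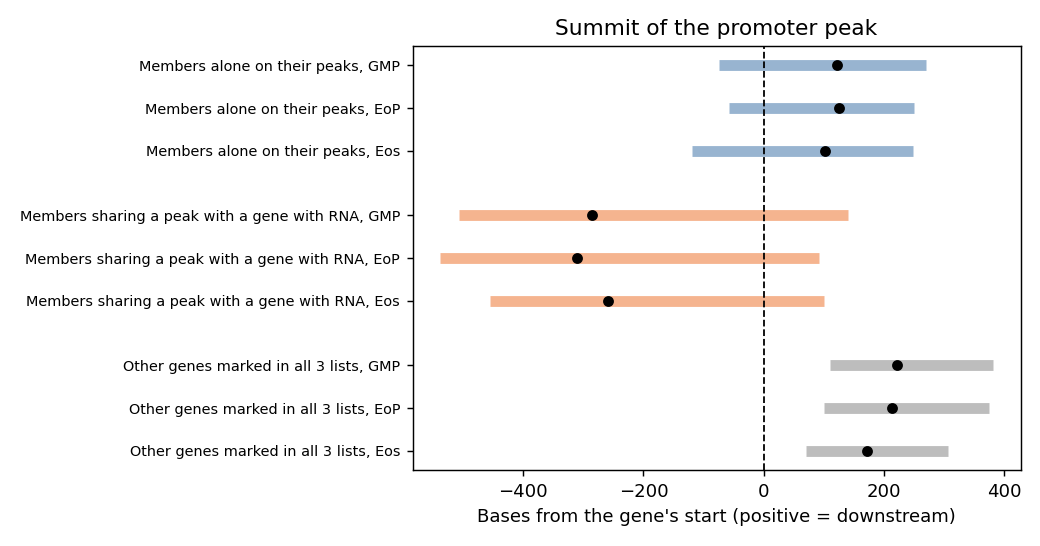
Position of the promoter peak summit in bases from the gene's start (x axis, positive values downstream, dashed line at the start) by class and list. Black points are medians and bars the middle 50% of genes. Medians lie downstream for alone members and for other marked genes, and upstream for members that share a peak with a gene with RNA.

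The partner genes had a median of 3.35 RPKM (middle 50%, 1.46 to 7.96) as a mean over the 6 libraries. The highest was H2-D1, a classical MHC class I heavy chain, which had 66.6 to 68.9 RPKM in GMP, 87.0 and 158 in EoP and 423 and 502 in Eos. It shared its promoter peaks with H2-L, a class I gene of the same locus, listed at 0 in all 6 libraries. The 2 are similar in sequence, so the split of their reads is uncertain. Lcp1, the actin-bundling protein of leukocytes, had 60.3 to 349 RPKM, while Lrrc63 on the same peak stayed at or under 0.118. Mdh2, for mitochondrial malate dehydrogenase, had 86.9 to 178 RPKM, and its neighbour Styxl1 had 0 to 0.189. Erp29, a chaperone of the endoplasmic reticulum, had 40.2 to 93.5 RPKM, and Tmem116 beside it had 0.266 and 0.153 in GMP and was listed at 0 in EoP and Eos. Ptbp1, a splicing regulator, had 73.6 to 88.7 RPKM in GMP and EoP and 31.1 and 14.0 in Eos, beside the noncoding E130317F20Rik at 0.0262 to 0.461. Dazap2 had 86.0 to 159 RPKM beside C330013E15Rik at 0.0476 to 0.453.

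Noncoding RNA genes were frequent among the sharing members. Long noncoding RNA genes were 39.1% of sharing members, 5.45% of alone members and 2.67% of other marked genes. Protein-coding genes were 49.8%, 90.9% and 96.2%. Among these noncoding members 4932416H05Rik, on the peak of the kinase gene Stk35, had peaks of 1514, 1278 and 1230 bases. It and 9930014A18Rik had the highest mean length percentile over the lists among gene models named by clone. Its RPKM was 0.0159 and 0.148 in GMP, 0.217 and 0.499 in EoP and 0.353 and 0.182 in Eos. Both GMP libraries were below the EoP and Eos libraries, and EoP and Eos overlapped. Of the 178 long noncoding members, 143 (80.3%) had a RefSeq promoter window. Their CG content relative to base composition had a median of 0.814, against 0.836 in the 217 windows of other marked long noncoding genes. For all members 71.9% had a window, under the 80% required, so no such value is given for them.

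Of the microRNA members, 25 of 28 were listed at 0 in all 6 libraries, and 16 shared a peak with a gene with RNA. A microRNA hairpin is short and cut from a longer transcript, so its row in such a table need not follow the level of that transcript. Mir132 and Mir212, which share the seed AACAGUC, lay on 1 peak of 319 bases in GMP, 304 in EoP and 401 in Eos. Their mature sequences lie at chr11:75173723-75173744 and chr11:75173443-75173464 on the plus strand. Mirlet7i, of the let-7 family of differentiation-linked microRNAs, had peaks of 1204, 595 and 689 bases that named no other gene. Its mature 5p sequence lies at chr10:122985698-122985719 on the minus strand, within the GMP peak at chr10:122984602-122985805. Mir203 (chr12:112130927-112130948, plus strand) had peaks of 883, 516 and 906 bases, and Mir760 (chr3:122293615-122293634, minus strand) of 1053, 709 and 1147 bases. Mir9-1 (chr3:88215613-88215635, plus strand), known from neural development, was narrower, at 478, 248 and 263 bases. Mir320 and Mir219-1 shared wide peaks with Polr3d and Ring1, and Mir207 with Dnaja1.

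Gene families were unevenly represented. Across all 11231 genes with little RNA, 9.87% were members. Members were 36 of 93 zinc finger genes of the numbered Zfp, Zscan and Zkscan series (38.7%), many of which encode DNA-binding repressors. They were 14 of 56 axon guidance genes (25%), 9 of 44 TGF-beta and BMP genes (20.5%) and 6 of 41 Wnt pathway genes (14.6%). Small nucleolar and nuclear RNA genes gave 6 of 22 (27.3%), of which 5 shared a peak with a gene with RNA. Shares were lower for homeobox genes outside the Hox clusters, at 7 of 138 (5.07%), and for cadherins and protocadherins, at 4 of 94 (4.26%). The order depends on the base. Among genes marked in all 3 lists, members were 10.1% of all genes and 11.8% of the zinc finger series. They were 31.8% of those homeobox genes and all 4 marked cadherins and protocadherins. Zinc finger members had a median highest RPKM of 0.323, against 0.224 over all members. Among ion channel genes the 1 member of 143 was Clcn2, and among 1359 chemosensory receptor genes the 1 member was Vmn2r29. No Sox gene of 16 and no transmitter receptor gene of 108 was a member. Of those 108 transmitter receptor genes, 33 had a promoter peak in 1 or 2 lists.

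**Figure D4:**
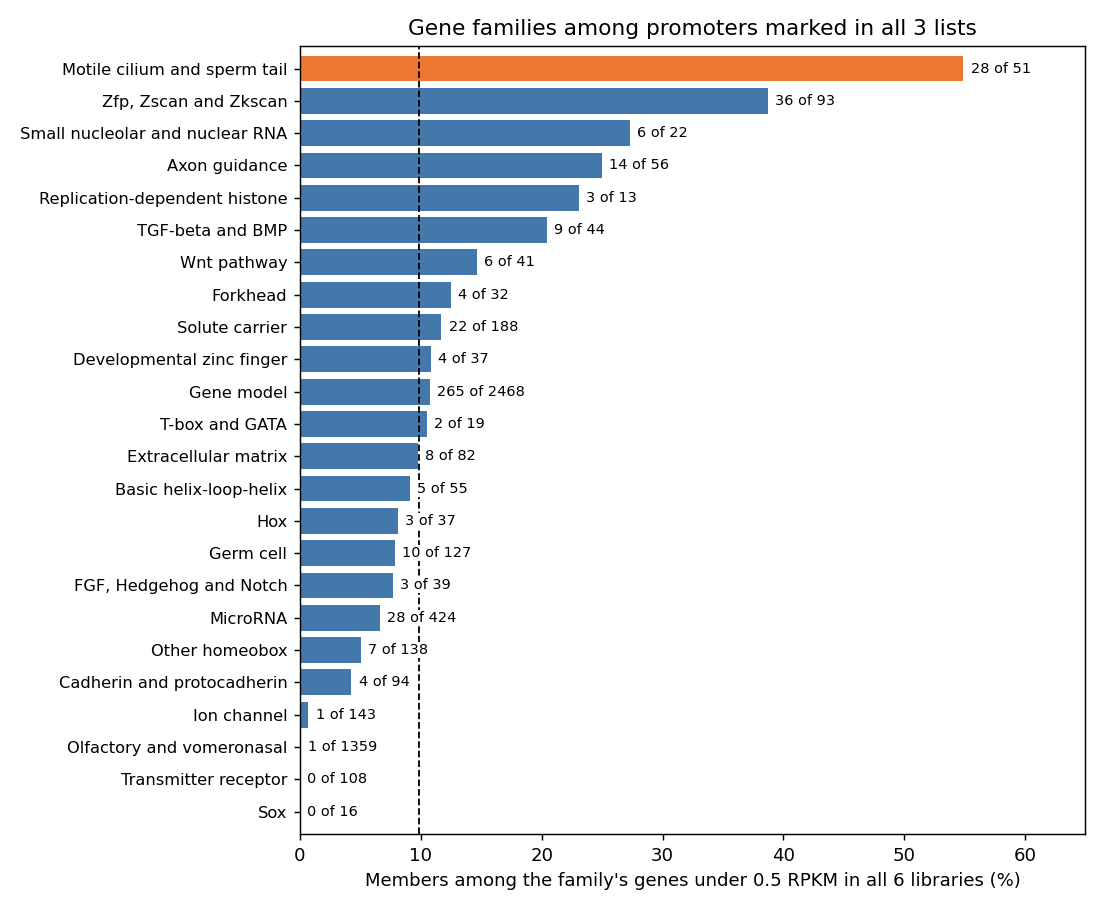
Bars give the percent of each family's genes under 0.5 RPKM in all 6 libraries that were members, with the counts beside them. The dashed line is the 9.87% over all such genes. The orange bar, the motile cilium list (28 of 51), was drawn up after the members were seen, and the other lists were written with earlier results of these data known.

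The need for a peak in all 3 lists weighed differently on these families. Of the 11231 genes with little RNA, 2757 had a promoter peak in the GMP list, 1269 in EoP and 1631 in Eos. GMP alone marked 1124 of them, EoP alone 11 and Eos alone 146. The EoP list was also the shortest, at 19816 intervals against 30645 in GMP and 33847 in Eos, so list length and population cannot be told apart. Of 138 homeobox genes outside the clusters, 49 were marked in GMP, 10 in EoP and 19 in Eos. For 143 ion channel genes the numbers were 50, 3 and 17. The zinc finger series kept more, with 56, 39 and 39, and the motile cilium list had 36, 30 and 28.

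Genes of motile cilia and the sperm tail were the list with the highest share, 28 members of 51 genes with little RNA (54.9%). The list was drawn up after these genes were seen among the members, so its share is a description. It holds axonemal dyneins and their assembly factors, radial spoke and docking proteins, and Foxj1, the forkhead regulator of motile ciliogenesis. Of the 28, 14 were alone and 12 shared a peak with a gene with RNA. Foxj1 itself was alone, with peaks of 445, 412 and 410 bases and folds of 10.02, 9.003 and 11.3, and was listed at 0 in 4 libraries and at 0.0385 RPKM or under in the others. The sharing members included Dnaaf1 beside Hsdl1 and Stk36 beside Rnf25, with Dnaaf1 peaks of 990, 810 and 739 bases. Iqcg, with its longest peaks upstream of the printed window, had 928, 838 and 790 bases. Its RPKM was 0.316 and 0.249 in GMP, 0.259 and 0.0698 in EoP and 0.294 and 0.190 in Eos, while Rpl35a, for a ribosomal protein, had 1.51 to 3.33. Alone cilium genes had short peaks, with medians of 414.5, 283.5 and 262.5 bases, against 740, 616 and 705 in those that shared. Dnah6, an axonemal dynein heavy chain, had 384, 145 and 145 bases, with its EoP peak at the floor of that list.

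The zinc finger series had higher median folds than all alone members, with the widest gap in GMP. Its 35 alone members had median folds of 12.7, 6.89 and 6.35, against 8.91, 5.92 and 6.06. Their median lengths were 579, 374 and 390 bases, against 581, 333 and 322, so they were longer in EoP and Eos and not in GMP. The 6 alone members with the highest fold enrichment over the lists were chosen by that value. They were Zfp354c, Zfp457 and Zscan20 together with Ccdc62, a coiled-coil protein of the testis, Fbxo47, an F-box protein of meiosis, and Nkapl, a germ cell paralog of Nkap. Zscan20 had folds of 16.4, 12.4 and 16.8 on peaks of 606, 365 and 483 bases. Its RPKM was 0.195 and 0.305 in GMP, 0.273 and 0.391 in EoP and 0.225 and 0.343 in Eos, so the populations overlapped. Fbxo47 had folds of 16.1, 10.5 and 18.4 on peaks of 457, 267 and 574 bases, so a high fold did not need a long peak.

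The widest alone members came from several families. The 10 with the highest mean length percentile were Ahdc1, Ankrd42, Ccdc142, Idi1, Rnf122, Snx21, Tgfbr3, Ttll11, Zdhhc14 and Zfp428. Their peaks spanned 938 to 1210 bases in GMP, 686 to 975 in EoP and 564 to 997 in Eos. Ahdc1 had 938, 929 and 892 bases and 0.165 and 0.294 RPKM in GMP, 0.265 and 0.341 in EoP and 0.302 and 0.194 in Eos. Ttll11, a polyglutamylase of tubulin, had 1007, 795 and 926 bases and was listed at 0 in 4 libraries, with 0.0938 in 1 GMP and 0.0405 RPKM in 1 Eos library. Idi1, an isomerase of isoprenoid synthesis, had 1210, 832 and 711 bases and at most 0.412 RPKM. Tgfbr3, the TGF-beta co-receptor betaglycan, had 1070, 800 and 717 bases and 0.0671 to 0.477 RPKM.

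A different set was wide in GMP and narrow later. The 4 alone members with the largest spread of length percentile were Ephb6, Ndnf, Prtg and Rnf150, and all 4 were widest in GMP. Ephb6, an ephrin receptor without kinase activity, had peaks of 1369, 313 and 239 bases. Ndnf, a secreted neurotrophic factor, had 1415, 237 and 136 bases, the last at the floor of the Eos list, and Prtg had 1248, 302 and 156. Rnf150, a ring finger protein, had 1253 and 808 bases in GMP and EoP and 163 in Eos. Ndnf had 0.0982 and 0.0318 RPKM in GMP, 0.0202 and 0 in EoP and 0.0209 and 0.00667 in Eos, with GMP above the others in both libraries. Its counts were only 11 and 3 in GMP, 2 and 0 in EoP and 3 and 1 in Eos. Prtg and Rnf150 also had GMP above the other libraries. Ephb6 did not, with 0.145 and 0.225 RPKM in GMP and 0.0377 and 0.150 in EoP. With 1 H3K4me3 library per population, these length differences have no replicate check.

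Axon guidance members were also widest in GMP as a group. All 14 were alone, and their median lengths were 700.5 bases in GMP, 299 in EoP and 239.5 in Eos, against 581, 333 and 322 in all alone members. Slit2, a repulsive guidance ligand, had 970, 208 and 158 bases, and Ntn1, for netrin, had 1064, 285 and 350. Sema4c, a semaphorin, had 1049, 509 and 136 bases, the last at the floor of the Eos list. Among the ephrin ligands, Efnb2 was an exception with 786, 527 and 712 bases. The 9 TGF-beta and BMP members had median lengths of 631, 271 and 189 bases, the 6 Wnt pathway members 733, 361 and 352, and the 3 FGF, Hedgehog and Notch members 801, 483 and 588. The TGF-beta and BMP members included Bmp2, a ligand, at 190, 145 and 136 bases and the receptor Acvr2b at 809, 261 and 136. The 145 bases in EoP and 136 in Eos are the floor of those lists. The longest Eos peak of Acvr2b did not overlap its longest GMP peak. Of the Wnt receptors, Fzd1 had 839, 314 and 156 bases, whereas Fzd2 had 240, 145 and 824 and Fzd4 had 476, 408 and 775. The Fzd2 EoP length is at the floor of that list. The longest Eos peak of Fzd4 did not overlap its longest GMP peak, so its lengths are of different intervals. Of the Notch ligands, Dll1 had 1072, 483 and 619 bases and Jag1 801, 525 and 588.

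Outside the zinc finger series, transcription factor families gave few members. These were the 7 homeobox genes outside the Hox clusters, 4 of 32 forkhead genes (12.5%) and 5 of 55 basic helix-loop-helix genes (9.09%), besides Hox genes. Among Hox genes, which set position along the body axis, Hoxa3 and Hoxa4 were members, with GMP peaks of 891 and 503 bases. Hoxa4 had 0.465 and 0.325 RPKM in GMP, 0.340 and 0.196 in EoP and 0.0641 and 0 in Eos, with Eos below the other libraries. Gbx2, a homeobox factor of the hindbrain, had peaks of 899, 858 and 154 bases, and Tgif2, a homeobox repressor, had 1060, 625 and 276. The 5 basic helix-loop-helix members had median lengths of 384, 247 and 216 bases, short in every list. Foxa3, a forkhead factor of liver, shared peaks of 888, 782 and 642 bases with Sympk, which had 2.66 to 6.61 RPKM. The 3 histone members shared a peak with another histone gene. Histone messages of this kind lack a poly(A) tail, and the sources used here name no RNA selection step.

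RNA of the members was then compared between populations with edgeR's quasi-likelihood test over all 14324 genes that passed its filter. The filter kept 568 of the 1108 members (51.3%). A member that passed through counts in 1 population had to differ from the others, and the rule caps every library at 0.5 RPKM, so the counts are given as descriptions. Calls were made at a Benjamini-Hochberg adjusted p under 0.05. In EoP against GMP 112 members were called, 1 higher and 111 lower, where 26.6% of all genes tested were called, 9.49% higher and 17.1% lower. In Eos against EoP 77 were called, 41 higher and 36 lower, where 36.8% of all genes were called, 19.1% higher and 17.7% lower. With DESeq2 size factors that split was 54 and 30. In Eos against GMP 170 were called, 9 higher and 161 lower, where 54.5% of all genes were called, 22.7% higher and 31.8% lower. The 112, 77 and 170 calls were 19.7%, 13.6% and 29.9% of the members tested, below those shares of all genes. By direction this did not always hold. In EoP against GMP 0.176% of members tested were higher and 19.5% lower, the latter above the 17.1% of all genes. The shares higher and lower were 7.22% and 6.34% in Eos against EoP and 1.58% and 28.3% in Eos against GMP. The 3 comparisons share libraries.

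Genes with little RNA and no mark were also called mostly lower than in GMP. The filter kept 1383 of the 8316 such genes with no promoter peak in any list (16.6%). A gene that passed through its GMP counts had to differ from the others, so these counts are descriptions too. Of the 1383, 866 were called lower in EoP than in GMP and 725 lower in Eos than in GMP. In Eos against EoP, 133 of them were called higher and 16 lower. Unmarked genes of little RNA were listed at 0 for 37.0% and 29.0% in the GMP libraries, 83.8% and 79.0% in EoP and 70.8% and 64.5% in Eos, so reads at such genes were spread more widely in GMP. The part of this in the members' calls was not tested. Leaving out 1 library of a compared population gave fewer called members in every such fit. Calls over all genes fell too, except without Eos replicate 1. Without either GMP replicate, calls in Eos against EoP also fell, among members and over all genes. These fits leave 1 population with 1 library, so their counts are given only as ranges, with the other processing settings.

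Zfhx4, a homeobox and zinc finger factor, had 107 and 102 counts in GMP, 0 and 2 in EoP and 8 and 14 in Eos. The ratio of GMP to EoP totals was 192 (95% counting interval 52.6 to 1598). Its longest peaks had 522 bases in GMP, 422 in EoP and 145 in Eos. Rbfox2, a splicing factor, had 52 and 36 counts in GMP and 0 in both EoP libraries, at least 54.0-fold lower against a floor of 3 counts over the group. For members whose counts were low outside 1 population, the filter selects on the difference, so no p is given. D10Bwg1379e had 0.412 and 0.399 RPKM in GMP, 0.443 and 0.461 in EoP and 0.0318 and 0.0228 in Eos. It fell by 3.53 on the log2 scale (SE 0.483) from EoP to Eos, and the Eos libraries did not overlap the rest. It was named for its small adjusted p and had 8 and 6 counts in Eos, so no p is given for it either.

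Tyro3, a receptor tyrosine kinase of the TAM family, was the 1 member called higher in EoP than in GMP. It had 0.0315 and 0.0498 RPKM in GMP, 0.344 and 0.489 in EoP and 0.0246 and 0.0157 in Eos, so EoP stood apart from both neighbours. The log2 difference was 3.03 (SE 0.740) from GMP to EoP and -3.81 (SE 0.773) from EoP to Eos. The call against GMP was lost without any 1 of the GMP or EoP libraries. Tyro3 had 3 and 4 counts in GMP, 29 and 52 in EoP and 3 and 2 in Eos. With counts low outside 1 population, the filter selects on its difference, so no p is given. Its peak was 624 bases in GMP, 406 in EoP and 575 in Eos, so the EoP peak was the shortest. Dnal1, a light chain of axonemal dynein, had 0.160 and 0.216 RPKM in GMP, 0.402 and 0.475 in EoP and 0.0340 and 0.0217 in Eos. Nfia, a nuclear factor I protein, was higher in Eos than in EoP, at 0.462 and 0.432 against 0.150 and 0.208 RPKM, with 0.361 and 0.334 in GMP.

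**Figure D5:**
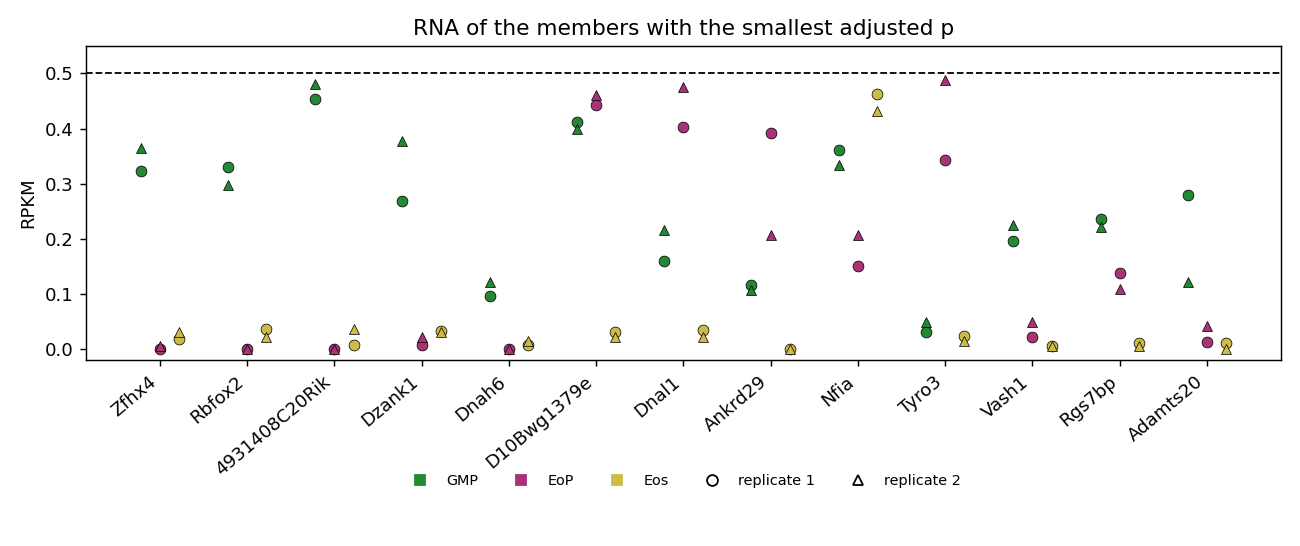
RPKM (y axis) in each of the 6 libraries for the members with the 5 smallest adjusted p-values of each comparison (x axis), with colour for the population and shape for the replicate. The dashed line is the 0.5 RPKM ceiling of the rule. Zfhx4 and Rbfox2 are near 0 outside GMP, D10Bwg1379e is near 0 in Eos, and Tyro3 is high in EoP.

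Members higher in Eos than in GMP were few. Of the 9, the following 3 were picked after their values were seen. Cdkn2b, an inhibitor of cyclin-dependent kinases, had 1 and 0 counts in GMP, 3 and 4 in EoP and 20 and 21 in Eos, with peaks of 338, 365 and 438 bases. Socs3, a feedback inhibitor of cytokine signalling, had 0 and 7 counts in GMP, 4 and 2 in EoP and 31 and 35 in Eos, with peaks of 716, 483 and 1131 bases. Fzd2, a Wnt receptor, had 3 and 1 counts in GMP, 3 and 2 in EoP and 22 and 14 in Eos. Counts of these 3 genes were low outside Eos, so the filter selects on the difference and no p is given. Without GMP replicate 2, edgeR no longer called Cdkn2b in Eos against GMP. Fzd2 was not called without either GMP or either Eos library, and Socs3 without GMP replicate 1 or either Eos library.

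Of the enzymes and complexes that write, remove or read H3K4 methylation or form Polycomb complexes, 0 genes were members. Over the 5 lists of such genes, 67 were tested. Of these, 8 were called higher and 1 lower in EoP against GMP, where 9.49% and 17.1% of all genes were. In Eos against EoP 15 were called higher and 13 lower, where 19.1% and 17.7% of all genes were. In Eos against GMP 23 were called higher and 14 lower, where 22.7% and 31.8% of all genes were. Of 11 genes of Polycomb repressive complex 2, 3 were called higher in EoP than in GMP, the methyltransferase Ezh2 with Eed and Suz12, and 1, Phf19, lower. In Eos against EoP, 2 of these 11 were called higher and 5 lower, Ezh2 and Suz12 among the lower. Of 18 genes of the methyltransferase complexes, 5 were called higher in Eos than in EoP, among them Kmt2a and Setd1b, and 3 lower.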

How the data were processed

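RNA was measured in 6 libraries and H3K4me3 in 3. The members and all gene lists were chosen with earlier results of these data known. Per the labels and file headers, the authors' deposited RNA tables give an estimated count, already whole, and an RPKM value per RefSeq transcript. The deposited RPKM and counts were summed per gene symbol. Which program made them, how it treated reads with several matches, and which peak caller and control were used are details not given in the sources used here. For tools, the submitters' processing notes name STAR 2.4.0c and Bowtie 1.0.0, with mm10 as build, without saying what each did.

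Per the file headers, the authors' 3 peak lists hold the length of an interval and, per summit, a pileup signal, a fold enrichment ratio, and −log10 values of p and q. The score and length are the authors' own values. A gene's length and fold are the highest over its promoter intervals in a list. Read depth of the H3K4me3 libraries is unknown. Positions are 1-based on mm10.

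The test of RNA was the quasi-likelihood test in edgeR 4.0.16 under R 4.3.3 (default expression filter, TMM factors, 1 fit of the 6 libraries with cell population as the only term, 3 residual degrees of freedom, Benjamini-Hochberg adjustment). The fit was tested on simulated data. Alternatives used DESeq2 1.42.0 and limma 3.58.1. The genes named were the 10 widest alone members, the 6 with the highest fold, the 4 with the largest spread of length, up to 3 per family of at least 3 members, the 6 with the highest partner, up to 5 called per comparison and the 3 nearest the threshold on each side. Others were picked after their values were seen. Sequences are from RefSeq, GRCm38.p6. Promoter windows were matched for 797 of 1108 members, so the planned CpG value over all members was void. Not all genes the rule names are described.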

Additional observations from a re-analysis of the deposited data

How the results depend on the processing

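Each library left out in turn gave 1123 to 1196 members, a shared fraction of 27.1 to 27.9%, median lengths of 650 to 656 (GMP), 403 to 411 (EoP) and 426 to 431 bases (Eos) and median folds of 9.47 to 9.48, 6.44 to 6.51 and 6.92 to 7.02. A ceiling of 0.25 RPKM gave 622 members, 33.0% sharing with a gene with RNA, and lengths of 373.5 in EoP and 401 in Eos. A ceiling of 1 RPKM gave 1803 members, lengths of 680, 447 and 471 and folds of 9.81, 6.83 and 7.44. The top-ranked 19816 peaks of each list gave 31.1% sharing, lengths of 676, 434 and 482 and folds of 9.76, 6.83 and 7.44. Alone members, 715 with 0% sharing by construction, had lengths of 581, 333 and 322 and folds of 8.91, 5.92 and 6.06. Without gene models and small RNA genes, 15.7% shared, lengths were 624, 365 and 363 and folds 6.15 in EoP and 6.43 in Eos. With EoP and Eos libraries only, an alternative chosen after seeing the data, the rule gave 1366 members and no value left the interval of the main median. The CpG value was not run, since too few members had a window.

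Calls among members moved with the libraries, the count filter and the test. Left-out libraries gave 7 to 155 calls for EoP against GMP, 27 to 75 for Eos against EoP and 27 to 167 for Eos against GMP. These fits leave 1 population with 1 library, which is assumed to vary like the others, so the ranges are descriptions of the fits only. Calls over all genes rose or fell with those of members, except in the Eos comparisons without Eos replicate 1. There they rose while calls among members fell. The ranges are thus not particular to members. The DESeq2 Wald test gave 70 and 89 for EoP and Eos against GMP. Over all genes it gave 3238 and 6999, against 3812 and 7810 in the main fit. A minimum of 20 counts in 2 libraries gave 28, 51 and 75 from fewer members tested (217). Over all genes that filter gave 2182, 5179 and 6640. On log2(RPKM + 0.5) limma gave 187 and 291 for EoP and Eos against GMP, and with a pseudocount of 0.1 it gave 212 and 300. Over all genes these were 5821 and 8987, and 6727 and 9783. The cause was not tested. The replicate number as a block gave 49, 42 and 93 calls, and 2687, 4963 and 6945 over all genes. Same-numbered libraries did not deviate together over all genes tested (correlations -0.0995, 0.0194 and -0.0849). Such values cannot tell whether the numbers pair the samples, since paired libraries need not share a deviation. Low counts limit all of these comparisons.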
